A study of Mus musculus with 2 samples.

Results

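Collagens are the family of proteins that build the fibres, sheets and filaments of the extracellular matrix. The genes described here are all protein-coding mouse genes whose symbol reads Col, a number, a and a number, 44 of the 21853 protein-coding genes with an annotated coding transcript. They comprise 11 fibrillar genes, 8 basement membrane genes, 9 FACIT genes (fibril-associated collagens with interrupted triple helices) and 16 other genes. Chromatin accessibility was measured by DNase-seq, in which the enzyme DNase I cuts DNA where it is not packed into nucleosomes. The tissue was gastrocnemius, the large calf muscle, from male B6CASTF1/J mice, first-generation hybrids of a C57BL/6 and a CAST parent strain, at 10 days of age. The series holds 1 group of 2 biological replicates with no treatment and no second tissue, so the comparisons are between genes, gene classes and the 2 libraries. The labels name 3 males per sample and give both samples the same donor record, and whether animals were pooled is not stated.

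In skeletal muscle, collagens I, III and V form the fibrils of the connective tissue sheaths, and fibroblasts and fibro-adipogenic progenitors are known as their main source. Collagen IV forms the network of the basement membrane around each fibre, and collagen VI links that membrane to the fibrils. FACIT collagens decorate fibril surfaces and do not form fibrils themselves. Whole muscle mixes fibres with fibroblasts, vessels, nerve and tendon, so fewer cells of a type and less accessibility per cell cannot be told apart.

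The libraries held 123255 and 150088 peaks, and 310961 and 373154 footprints, which are short stretches protected from cutting inside accessible DNA. A peak's value is the authors' depth-scaled signal, and every value was a whole multiple of 0.00544 in replicate 1 and 0.00587 in replicate 2, taken here as 1 tag each. A gene was called open when a peak overlapped the 500 bp either side of a coding start in both replicates, and its value is the largest of those peaks. Markers of myofibres were open in 8 of 8 genes, of fibroblasts in 7 of 8, of endothelium in 6 of 6, of tendon in 4 of 6, of cartilage in 4 of 7, of Schwann cells in 3 of 5, of bone in 2 of 6, of keratinocytes in 1 of 5 and of hepatocytes in 0 of 4. Of all protein-coding genes 66% were open, so the shares for tendon (66.7%), Schwann cells (60.0%) and cartilage (57.1%) were near or below that of all genes.

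Several sequences carry the results that follow and are given 5′ to 3′ on the mm10 build. In the longer ones, capitals mark bases inside a footprint in both libraries. The first set precedes annotated starts. Col1a1 and Col5a1 are the highest fibrillar promoters, Col6a3 is the second highest of the remaining class, and Col1a2 encodes the partner chain of Col1a1. The last is the whole gap between a head-to-head pair of type IV genes. That gap lies outside the peak shared by the pair, described below, and holds no footprint in either library.
Col1a1, chr11:94936074-94936223, plus strand: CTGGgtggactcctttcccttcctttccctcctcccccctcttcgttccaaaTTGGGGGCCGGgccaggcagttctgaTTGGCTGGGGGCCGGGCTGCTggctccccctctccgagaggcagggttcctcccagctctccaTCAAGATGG
Col5a1, chr2:27886275-27886424, plus strand: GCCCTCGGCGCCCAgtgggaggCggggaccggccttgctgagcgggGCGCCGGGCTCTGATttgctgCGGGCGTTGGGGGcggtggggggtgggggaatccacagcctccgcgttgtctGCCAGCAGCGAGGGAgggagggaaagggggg
Col6a3, chr1:90843972-90844121, minus strand: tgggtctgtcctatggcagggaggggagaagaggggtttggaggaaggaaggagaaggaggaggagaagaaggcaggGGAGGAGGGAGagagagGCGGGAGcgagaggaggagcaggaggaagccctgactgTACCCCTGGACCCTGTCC
Col1a2, chr6:4505370-4505492, plus strand: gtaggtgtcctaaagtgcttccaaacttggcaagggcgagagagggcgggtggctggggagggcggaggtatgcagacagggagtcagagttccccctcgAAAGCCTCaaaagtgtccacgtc
Col4a3/Col4a4, chr1:82586850-82586920, plus strand: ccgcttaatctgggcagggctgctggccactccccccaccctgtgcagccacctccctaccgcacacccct

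The second set holds stretches common to a footprint of each library, in capitals throughout, from the 3 promoters with the highest values. The Col6a2 stretch is the overlap of 2 longer footprints, 1 from each library. The Col1a1 footprint crosses the annotated start, and the TATAAA in it begins at the start itself.
Col1a1, chr11:94936215-94936239, plus strand: TCAAGATGGTATAAAAGGGGCCCAG
Col16a1, chr4:130047815-130047840, plus strand: CCTCTTGGCAGGCCCCCAGCCCCCTG
Col6a2, chr10:76623514-76623539, minus strand: TTTCCTCCCCTCCCCCAGCTCATTCC

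The third set holds sites away from promoters. The first is the highest at any fibrillar locus, the second the highest at any collagen locus, the third holds the stricter form of the CTCF core searched below, and the last lies upstream of Col1a2.
Col1a1 upstream site, chr11:94928901-94929120, plus strand: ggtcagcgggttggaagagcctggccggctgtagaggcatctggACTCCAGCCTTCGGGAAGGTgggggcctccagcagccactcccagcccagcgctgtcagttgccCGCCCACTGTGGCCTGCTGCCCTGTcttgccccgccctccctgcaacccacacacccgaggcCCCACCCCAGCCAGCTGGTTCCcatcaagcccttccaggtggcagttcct
Col23a1 intron site, chr11:51539801-51539940, plus strand: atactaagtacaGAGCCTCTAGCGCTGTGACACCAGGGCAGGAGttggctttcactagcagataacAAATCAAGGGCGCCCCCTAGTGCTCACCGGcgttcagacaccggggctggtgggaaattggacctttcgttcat
Col27a1 intron site, chr4:63307521-63307700, plus strand: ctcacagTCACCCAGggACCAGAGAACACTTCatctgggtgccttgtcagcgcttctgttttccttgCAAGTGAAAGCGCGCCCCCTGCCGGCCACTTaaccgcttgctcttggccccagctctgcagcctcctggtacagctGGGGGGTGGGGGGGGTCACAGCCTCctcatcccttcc
Col1a2 upstream site, chr6:4488441-4488600, plus strand: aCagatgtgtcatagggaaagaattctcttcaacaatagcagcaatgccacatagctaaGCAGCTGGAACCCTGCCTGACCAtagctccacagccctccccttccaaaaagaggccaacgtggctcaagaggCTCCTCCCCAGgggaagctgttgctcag

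Most collagen promoters were open in this muscle, but their signal was low. Of the 44 collagen genes, 35 (79.5%) were open in both replicates, against 66% of all protein-coding genes. By library 37 were open in replicate 1 and 36 in replicate 2, against 67.8% and 68% of all genes. Another 3 were open in 1 replicate, and 6 had no promoter peak in either, where 30.2% of all genes had none. The 35 genes rested on 33 distinct peaks, because 2 pairs of type IV genes share 1 peak each. Among genes open in both, the median value was 1.80 for collagen genes and 5.49 for all genes. By library these medians were 1.71 for collagen genes and 4.64 for all genes in replicate 1, and 2.37 and 6.44 in the same order in replicate 2. Only 4 collagen genes lay above the median of all open promoters, which 33% of all genes exceeded: Col16a1, Col6a2, Col1a1 and Col5a1. In replicate 2 the value was higher than in replicate 1 at 30 collagen genes (68.2% of the 44), against 54.1% of all genes. It was at least 2 times higher at 6 (13.6%), against 5.25%. These shares include genes not open in both, which have no ratio. Among genes open in both, the value was higher at 30 of 35 collagen genes and 11820 of 14419 genes in all. It was at least 2 times higher at 6 of 35 and 1148 of 14419, and the median ratio was 1.38 and 1.36. A footprint lay in the promoter in both replicates at 34 collagen genes (77.3%), against 64.3% of all genes. These counts, 34 and 14056, were close to the counts of open promoters, 35 and 14419. The contrast in footprints is therefore not separate from that in open promoters.

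**Figure D1:**
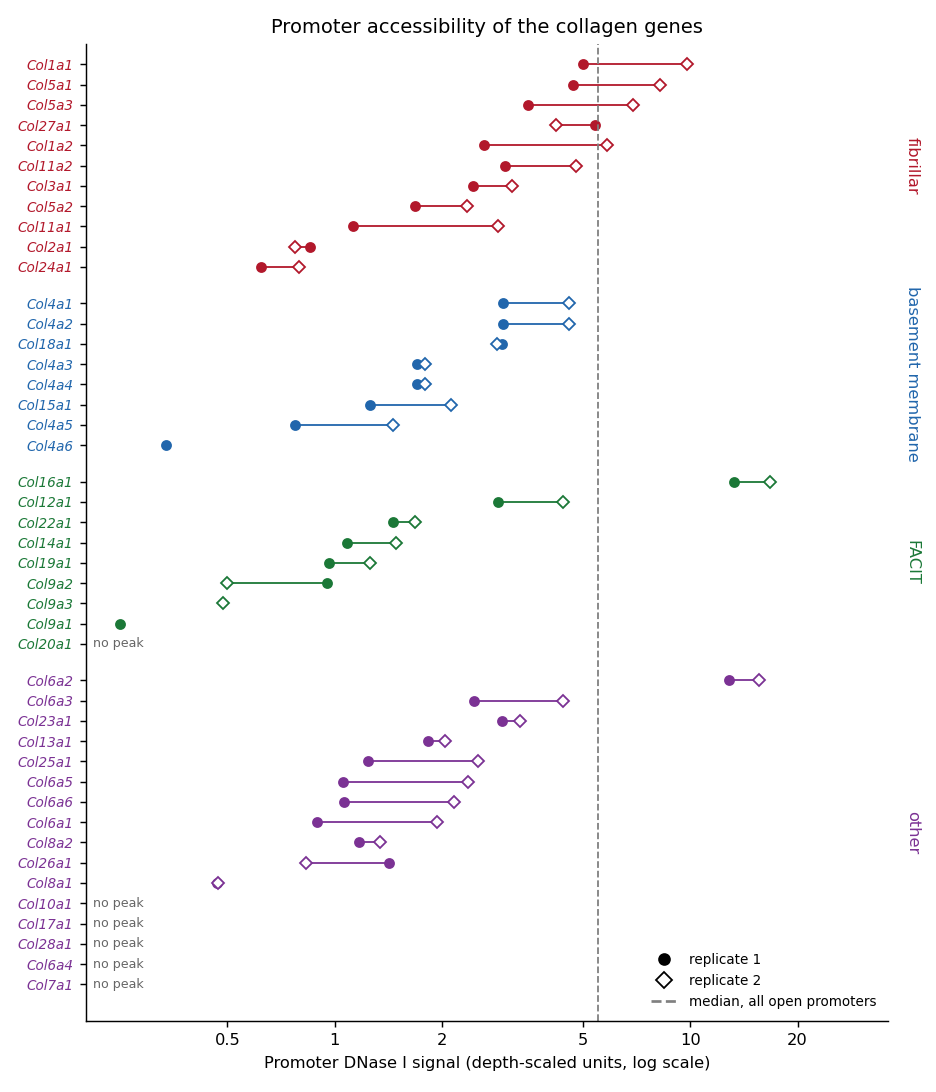
Promoter DNase I signal of the 44 collagen genes on a log scale, by class, with a filled circle for replicate 1, an open diamond for replicate 2 and a dashed line at the median of all open promoters, 5.49. Col16a1 and Col6a2 stand to the right of the line in both libraries, most genes lie to its left, and 6 genes have no peak.

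Base composition differed between collagen and other promoters. The median observed-to-expected CpG ratio was 0.435 for collagen promoters and 0.566 for all promoters. All genes were therefore split into 3 groups of equal size by this ratio. In the lowest group, 8 of 14 collagen promoters were open (57.1%), against 18.0% of all promoters. In the middle group 19 of 22 were open (86.4%), against 82.0% of all, and in the highest group 8 of 8 were open, against 98.0% of all. Medians of open promoters, for collagen genes first, were 2.17 against 1.77 in the lowest group, 1.75 against 3.73 in the middle group and 3.41 against 7.88 in the highest. The low median of collagen promoters was thus seen in the middle and highest groups and not in the lowest. Col1a1, Col1a2, Col3a1 and Col6a1 had ratios of 0.300, 0.356, 0.178 and 0.216.

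**Figure D2:**
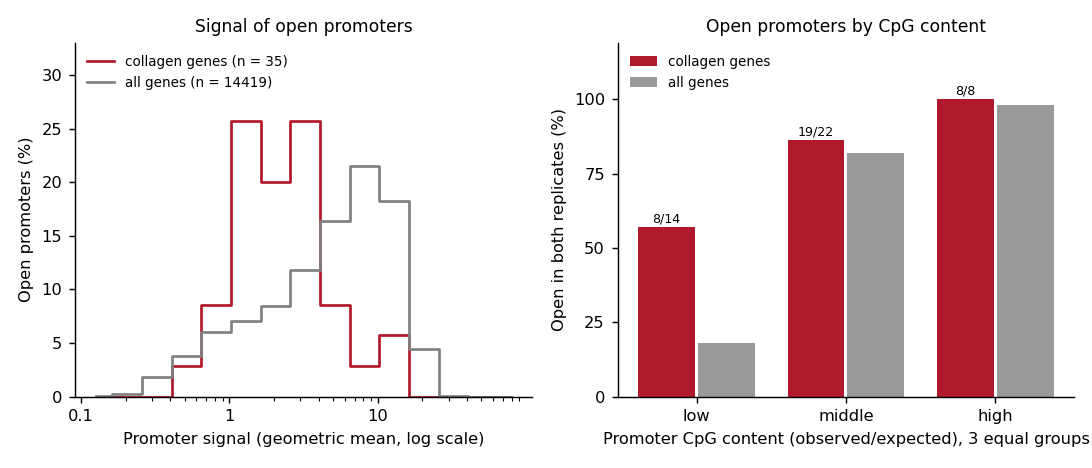
Left, the share of open promoters (%) by geometric mean signal on a log scale, for 35 collagen genes (red) and 14419 genes in all (grey). Right, the share of promoters open in both replicates (%) in 3 equal groups of the observed-to-expected CpG ratio, with collagen genes in red, their counts above the bars, and all genes in grey; the bars differ most in the lowest group, 57.1% against 18.0%.

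All 11 fibrillar genes were open, against 66% of all genes, with a median value of 3.79, the highest of the 4 classes. Col1a1, which encodes the major chain of type I collagen, had 5.00 in replicate 1 and 9.75 in replicate 2, on 920 and 1661 tags. Exact Poisson 95% intervals, which cover counting error only here and below, were 4.68 to 5.34 and 9.29 to 10.2 and did not overlap. Col1a2, the partner chain, had 2.63 and 5.81. Col1a1 was 1.95 times and Col1a2 2.21 times higher in replicate 2, where the median open collagen promoter was higher by 1.38 times and the median open promoter of all genes by 1.36 times.

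Type V collagen starts and limits the width of type I fibrils, and of its genes Col5a1 and Col5a3 followed Col1a1 in this class. Col5a1 had 4.67 and 8.22, Col5a3 had 3.49 and 6.90, and Col5a2 had 1.68 and 2.36. Col3a1, the chain of the pliable type III fibrils, had 2.44 and 3.15. Col27a1, a fibrillar collagen known from cartilage, was higher in replicate 1, with 5.38 in replicate 1 and 4.18 in replicate 2.

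The remaining fibrillar genes, some of them known mainly from cartilage, spanned a wide range. Col11a2 had 3.01 and 4.78, from a peak centred 576 and 586 bp after a secondary coding start. At the start of its longest coding transcript the value was 0.870 and 1.05. Col11a1 had 1.13 and 2.88. Col2a1, the main fibrillar chain of cartilage, had 0.854 and 0.775, and Col24a1 had 0.620 and 0.792, the lowest pair of the class. Of the 7 cartilage markers 4 were open: Sox9 (2.93 and 5.30), Matn3 (3.01 and 3.40), Hapln1 (0.783 and 0.646) and Acan (0.506 and 0.493). Cnmd, Matn1 and Snorc had no promoter peak in either library. The summed promoter value of the list was 7.23 in replicate 1 and 9.84 in replicate 2. The part of cartilage cells in these values was not tested.

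Around the annotated Col1a1 start, 6 footprints lay in the promoter of each library, and all 6 overlapped one of the other library. The 150 bases before it hold the motif CCAAT on the reverse strand at 95 to 99 and at 69 to 73 bp before the start. In both matches 4 of the 5 bases fell inside a shared footprint. CCAAT boxes at the type I collagen promoters are known as binding sites of the factor NF-Y. Over the window from 250 bp before to 50 bp after the main start, on both strands, CCAAT occurred in 18 of 44 collagen promoters (40.9%), against 38.6% of all promoters. The same counts were 25 of 44 (56.8%) for GGGCGG, against 45.1% of all, and 6 of 44 (13.6%) for TATAAA, against 12.7% of all. Among open promoters alone, GGGCGG was in 22 of 35 collagen promoters (62.9%), against 62.7% of all, CCAAT in 14 of 35 (40.0%), against 37.4%, and TATAAA in 4 of 35 (11.4%), against 7.48%. A match describes letters in a window and not a bound site.

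The other 7 motifs searched were each found in 6 collagen promoters or fewer. GGAATG and CAGCTG were each in 6 (13.6%), against 13.0% and 15.6% of all promoters. ACAAAG was in 4 (9.09%, against 17.5%) and CTA and TAG with any 4 bases between them in 3 (6.82%, against 3.52%). TGANTCA and CACGTG were each in 1 (2.27%), against 6.58% and 7.68% of all. TTGGC and GCCAA with any 5 bases between them occurred in 0 collagen promoters and in 0.0320% of all.

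Among the basement membrane genes 7 of 8 (87.5%) were open, against 66% of all genes, with a median of 1.75. Type IV collagen genes sit in head-to-head pairs that share a promoter region. Col4a1 and Col4a2, whose chains make up most basement membranes, have main starts 21 bp apart and shared a peak of 2.98 in replicate 1 and 4.55 in replicate 2. Col4a3 and Col4a4, known from kidney and other specialised membranes, have main starts 127 bp apart and shared a peak of 1.71 and 1.80. The Col4a1/Col4a2 peak covers both main starts. The Col4a3/Col4a4 peak covers the Col4a3 main start and lies upstream of the Col4a4 start in both libraries. Each peak lies in the promoter windows of both genes of its pair, so its value cannot be divided between them.

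The third pair, Col4a5 and Col4a6 on the X chromosome, has starts 1309 bp apart and no common peak. Col4a5 had 0.772 and 1.46, and Col4a6 had a peak of 0.337 in replicate 1, on 62 tags, and none in replicate 2. Col18a1, the source of endostatin, had 2.95 and 2.86 at its main start, and the most upstream of its 5 coding starts had 1.07 and 1.34. Col15a1, a relative in muscle and vessel membranes, had 1.26 and 2.12. Within this class the Col4a1/Col4a2 peak, Col15a1 and Col4a5 were higher in replicate 2 beyond counting error, by 1.53, 1.68 and 1.88 times. The median open promoter of all genes was higher by 1.36 times, a difference that the counting intervals do not take into account. The intervals of the Col4a3/Col4a4 peak overlapped (1.52 to 1.91 and 1.60 to 2.01), as did those of Col18a1 (2.70 to 3.21 and 2.61 to 3.12).

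Among the FACIT genes 6 of 9 (66.7%) were open, near the 66% of all genes, with a median of 1.42. In this class 1 gene stood far above the rest. Col16a1 had 13.3 and 16.7, the highest value of the family, at percentile 93.7 among all open promoters. The start of an antisense transcript, Gm12963, lies within 500 bp of it, and reads of DNase-seq carry no strand of transcription, so the peak cannot be assigned to either. Col12a1, whose product coats fibrils in tendon and muscle sheaths, had 2.88 and 4.39. Col22a1, a protein of the muscle-tendon junction, had 1.46 and 1.68, and Col14a1, another fibril-coating chain, had 1.08 and 1.49.

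Type IX collagen, which coats cartilage fibrils, had the lowest values among FACIT promoters with a peak. Col9a2 had 0.952 and 0.499, from peaks centred 626 and 616 bp after the start. Col9a1 had a peak in replicate 1 only (0.250) and Col9a3 in replicate 2 only (0.487). The peaks of Col9a1 and Col9a3 were at secondary coding starts, 17577 and 432 bp after the main starts, which had no peak in either library. Col19a1 had 0.963 and 1.26. Col20a1 had no promoter peak.

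In the remaining class 11 of 16 genes (68.8%) were open, near the 66% of all genes, with a median of 1.58. The type VI genes Col6a2 and Col6a3 had the highest values of the class. Col6a2 had 12.8 and 15.6, at percentile 92.1 of all open promoters. Col6a1, whose product assembles with that of Col6a2 in the same molecule, had 0.892 and 1.94. Col6a3, the third chain of that molecule, had 2.46 and 4.39. The chains Col6a5 and Col6a6, which can take its place, had 1.06 and 2.37, and 1.06 and 2.17, and Col6a4 had no peak. The Col6a2 footprint stretch printed above holds GGAATG on the reverse strand at its bases 21 to 26.

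The membrane-spanning collagens Col23a1 and Col13a1, of which Col13a1 is known from the neuromuscular junction, had 2.96 and 3.33, and 1.83 and 2.04. Col25a1, another membrane-spanning chain needed by motor nerves, had 1.24 and 2.52. Col8a2 and Col8a1, network-forming chains of vessels and cornea, had 1.17 and 1.34, and 0.468 and 0.470. The Col8a1 values came from different peaks that did not overlap, the one of replicate 1 lying farther upstream, so they do not measure the same site. Col26a1 had 1.42 and 0.833. Without a promoter peak in either library were Col10a1 of hypertrophic cartilage, Col7a1 and Col17a1 of the skin's attachment to its basement membrane, Col28a1 and Col6a4. Of the keratinocyte markers 1 of 5 was open, with summed values of 0.408 and 0.522.

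Genes acting on collagens were described from lists chosen by function. Of 32 genes for collagen synthesis, folding, processing and crosslinking, 31 (96.9%) were open, against 66% of all genes. The median CpG ratio of these 32 promoters was 0.745, within the highest of the 3 CpG groups, where 98.0% of all promoters were open. The list itself was not split by this ratio. The median value of its open promoters was 3.37, against 5.49 for all open promoters. P4hb (14.6 and 28.2), P4ha1 (13.3 and 24.6) and P3h1 (12.4 and 18.2), subunits or enzymes of proline hydroxylation, had the highest values, and Loxl2, a crosslinking enzyme, had no peak. Of 10 collagen receptors 8 (80.0%) were open with a median of 3.09, led by Itgb1 (10.4 and 15.6), Ddr1 (4.92 and 8.95) and Ddr2 (4.62 and 5.14), and the platelet and leukocyte receptors Gp6 and Lair1 had none. Of 9 genes of collagen breakdown and its inhibitors 5 (55.6%) were open, a share below that of all genes, with a median of 3.37, led by Timp2 (7.82 and 9.67), Timp3 (2.63 and 4.71) and Mmp14 (2.64 and 4.31). Mmp8, Mmp9 and Mmp13 had no peak, and Ctsk had one in replicate 2 only (0.622).

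Collagen genes are long, and their loci were measured as the gene body with 10 kb on each side. The median locus was 134 kb for collagen genes and 37.4 kb for all genes. Peaks covered a median of 1.71% of a collagen locus, against 1.56% for all genes, and the median density was 2.43 footprints per 10 kb, against 2.44 for all genes. Among the 5115 genes with loci of 55.5 to 164 kb, the medians were 1.41% and 2.13 footprints. The medians of the 44 collagen loci were thus near those of all genes on both measures, and above those of the 5115 genes. By class, fibrillar loci had the highest medians, 3.25% and 4.68 footprints per 10 kb, and FACIT loci the lowest, 1.33% and 1.85. Basement membrane loci had 1.99% and 2.70, and loci of the remaining class 1.97% and 2.43.

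The accessible share of 3 collagen loci differed sharply between the libraries. At Col6a1, 37 peaks covered 21.6% of the locus in replicate 2, and 10 peaks covered 4.94% in replicate 1. Positions listed by the authors below a false discovery rate of 0.05 made up 39.7% and 6.59% of that locus in the same order. By place, the listed share was 76.9% in replicate 2 and 19.1% in replicate 1 over the upstream 10 kb, 38.5% and 2.46% over the gene body, and 4.83% and 1.28% over the downstream 10 kb. At Col1a1, 22 peaks covered 12.6% in replicate 2, and 8 peaks covered 3.99% in replicate 1. At Col6a2 the shares were 6.25% in replicate 2 and 1.41% in replicate 1.

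Col9a2 went the other way, with 1.61% in replicate 2 and 3.11% in replicate 1. Of the 32 collagen loci with at least 1% in peaks in a library, 4 (12.5%) had at least 2 times the share in replicate 2, against 6.61% of all such loci, and 3 (9.38%) at least 3 times, against 1.51%. The median ratio was 1.38 for collagen loci and 1.11 for all. By the gain in listed positions, Col6a1 ranked 2, Col1a1 49 and Col6a2 93 of 14910 genes. Summed promoter values of the marker lists in replicates 2 and 1 were 25.2 and 19.1 for fibroblast genes, 47.0 and 26.9 for myofibre genes, 12.5 and 11.8 for tendon genes, 8.35 and 7.06 for endothelial genes, 20.9 and 16.0 for Schwann cell genes and 5.95 and 6.77 for bone genes. The median ratio over open members was 1.12 for fibroblast, 1.37 for tendon, 1.40 for endothelial, 1.31 for Schwann cell, 1.05 for cartilage and 0.79 for bone genes, and 1.99 for myofibre genes, beside 1.36 for all open promoters. Replicate 2 also had more peaks and more listed positions in all, 43782204 against 35695993. The part of these differences in the collagen loci was not tested.

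**Figure D3:**
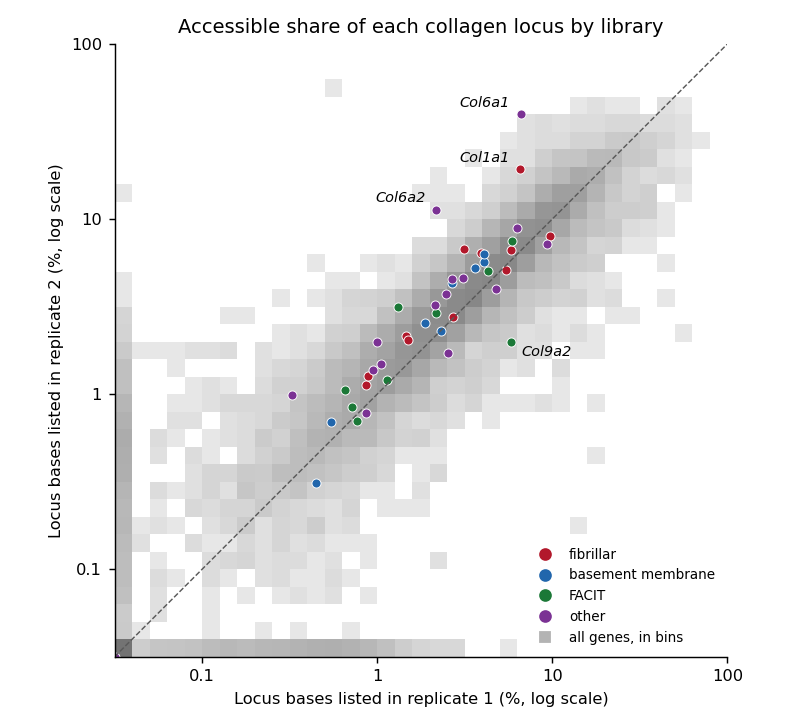
Share of each locus (gene body with 10 kb on each side) made up of listed positions (%) in replicate 1 and replicate 2, both on log scales, with collagen genes coloured by class over all genes in grey bins; values below the axes' lower end, and loci at 0, are drawn at the edge. Col6a1, Col1a1 and Col6a2 lie well above the diagonal and Col9a2 below it.

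Away from promoters, 326 distinct sites at collagen loci had a peak in both libraries, 254 in introns, 19 in exons and 53 in flanks. Their median value was 1.04, and 76 of the 326 lay above 2, against 13276 of all 73365 shared sites away from promoters. The highest at a collagen locus was in an intron of Col23a1, 249951 bp after its start, with 12.5 and 10.6. It was followed by a site 7213 bp before Col1a1, with 6.97 in replicate 1 and 14.0 in replicate 2, more than the Col1a1 promoter in each library.

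Others among the 10 highest were 2393 and 7273 bp before Col6a1 (8.58 and 6.93, and 5.74 and 6.06), and 1523 bp before Col13a1 (9.58 and 6.07). Introns held the rest: 92176 and 75836 bp into Col27a1 (9.17 and 6.24, and 5.35 and 9.04), 39701 bp into Col16a1 (8.61 and 6.05), 26910 bp into Col15a1 (6.63 and 6.58) and 92100 bp into Col26a1 (6.96 and 5.96). The Col16a1 site was the highest of the FACIT loci and the Col15a1 site of the basement membrane loci. The locus of Col10a1 held no peak in either library.

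CTCF is a protein that insulates and anchors chromatin loops, and a core of its known motif was searched in the central 150 bp of each site after the sites had been listed. The stricter form, CC, any 3 bases, AG, any 2 bases and GGC, was in 51 of 326 collagen sites (15.6%), against 17.7% of all shared sites away from promoters. Above a value of 2 it was in 23 of 76 collagen sites (30.3%), against 33.9% of all such sites. The looser form, which drops the first C, was searched second, because the first had missed several of the highest sites, and was in 95 of 326 collagen sites (29.1%), against 29.1% of all. Above 2 it was in 40 of 76 (52.6%), against 46.9% of all. With either form the collagen sites were near the background share. The Col27a1 site printed above holds the stricter form on the reverse strand at its bases 81 to 92, all 12 inside a shared footprint. The Col23a1 and Col1a1 sites hold only the looser form, with 11 bases inside a shared footprint at bases 78 to 88 and 110 to 120.

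Upstream of Col1a2, beyond the 10 kb flank, a region known in mice as a far-upstream enhancer of this gene was examined after the values had been seen. A site 16972 bp before the main start had 2.83 and 5.07, and sites at 15982 and 15433 bp had 0.886 and 3.33, and 0.506 and 1.60. All 3 were higher in replicate 2, as was the promoter. A further site 47622 bp before the start had 3.55 and 5.46. The sequence of the first site holds CAGCTG at its bases 61 to 66, all 6 inside a shared footprint.

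**Figure D4:**
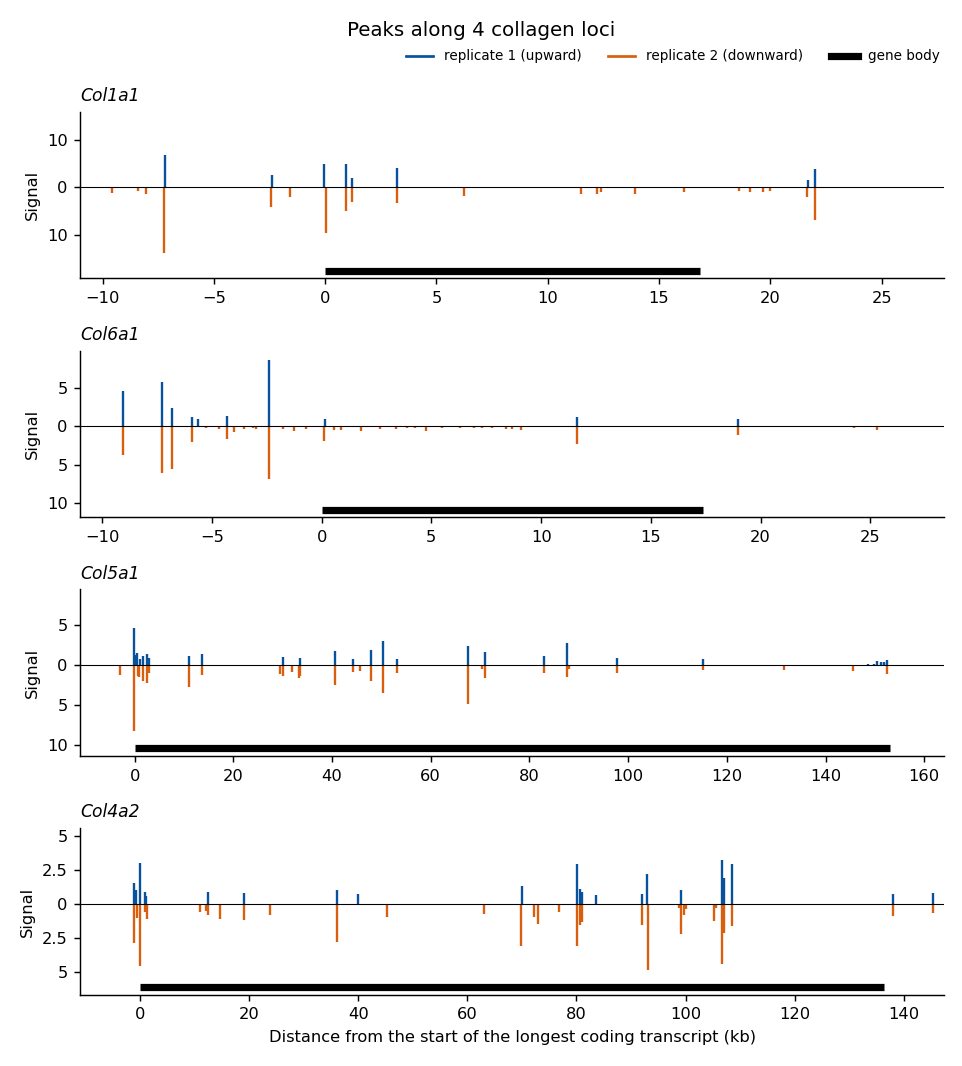
Peaks at 4 collagen loci by distance (kb) from the start of the longest coding transcript, with the depth-scaled signal of replicate 1 upward in blue and of replicate 2 downward in orange, and the gene body as a black bar. The Col1a1 site about 7 kb upstream is taller than the promoter in both libraries, Col6a1 has many small peaks in replicate 2 only, and Col5a1 and Col4a2 carry peaks throughout their introns.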

How the data were processed

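DNase-seq of gastrocnemius from 2 biological replicates was analysed from the deposited mm10 files. Peaks, footprints and per-position false discovery rates were made by the authors for each library alone, per the notes deposited with the files. The tools behind them were not given in the sources used here. Peak values are deposited as a signal, scaled to depth by the authors as its steps show. Each deposited value was a whole multiple of 1 step within 0.05 of a step in 100% of peaks, and tags were recovered by dividing by it. A median peak held 134 tags (replicate 1) or 122 (replicate 2). The authors' per-position p-value files list only positions below a false discovery rate of 0.05, and the footprint files carry a constant 0.01, so only positions were used.

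Gene models were GENCODE M21 and sequences the GRCm38 reference. Of 2 peak sets per library the wider, with more peaks, was the main one. Promoters were 500 bp either side of every coding start, with an overlap of 1 bp; a gene's value is its highest promoter peak, and a value over both libraries is the geometric mean. Loci were gene bodies with 10 kb each side. With 1 group of 2 replicates no test between conditions exists, and collagen genes are described by counts and medians beside all genes. Whether the replicates came from separate animals is not stated, so their spread may be technical.

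Every collagen gene is accounted for by class; the 3 highest promoters of each class, the type IV pairs and the 10 highest sites away from promoters are described with both values. The members and the lists of other genes and markers were chosen with earlier results of these data known. The 2 CTCF core forms, the region upstream of Col1a2 and the ranking of locus gains were added after the data were seen. Mmp1a was not matched in the annotation. Python 3.11.15, NumPy 2.4.6, SciPy 1.17.1, pysam 0.24.0 and Matplotlib 3.10.9 were used, and the overlap, cover and step functions were tested on simulated data.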

Additional observations from a re-analysis of the deposited data

How the results depend on the processing

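The count of open collagen promoters was 35 and stayed between 31 and 37 under the stricter peak set, other windows (250 or 1000 bp), only the longest transcript's start, peak midpoints, either library alone, and each shared type IV peak counted once (33 of 42 genes, added after the data were seen). Promoters with a footprint stayed at 34 or 35. Counts for the 4 classes and the 3 lists, recomputed the same way and also added later, each stayed within 1.5 times the reported count. The median promoter value, 1.80, was 2.38 when overlapping peaks were summed (6.85 for all genes), and ranged from 1.68 to 2.37 with 1 library left out. The share of a locus in peaks, 1.71%, was 1.10% with the stricter peaks and 2.70% with listed positions, and ranged from 1.52% to 1.88% with 1 library left out. The density of 2.43 footprints per 10 kb was 2.11 without flanks, 2.83 with 50 kb flanks and 1.25 counting only footprints found in both libraries, and ranged from 2.36 to 2.67 with 1 library left out.

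No paired analysis was possible because the series has 1 group. Values at Col4a6, Col9a1, Col9a3 and Ctsk rest on 1 library. The largest contrasts between the libraries, at Col6a1, Col1a1 and Col6a2, rest on 1 library each way and have no further replicate.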
